A study of Mus musculus with 24 samples.

Results

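The genes described here are those whose signal was high on every wild-type array of one strain and low on every wild-type array of the other, in both liver and duodenum. A probe set, a group of short probes that together read one transcript segment, was taken when in each tissue the lowest of the 3 wild-type values of one strain was at least 50 and at least 4 times the highest value of the other strain, in the same direction in both tissues. Of 45037 probe sets, 51 met this rule, 37 of them higher in B6 (C57BL/6) and 14 higher in D2 (DBA/2). After 13 with no or several gene symbols and 7 of gene families left out by name (the *H2-*, *Ifi*, *Mnda*, *Gst*, *Cyp* and *Ugt* families, *Pla2g2a* and *Xaf1*) were set aside, 31 probe sets of 30 genes remained, out of 18193 genes with a probe set of 1 symbol. They were 27 probe sets higher in B6 and 4 higher in D2, with *Pdxdc1* present once in each direction. Because wild-type values chose these genes, the wild-type strain difference is given below as a description only, and the strain and tissue differences were tested on the *Hfe*-/- arrays, which the rule did not use. Comparisons of *Hfe*-/- with wild-type mice use the arrays that chose the genes and are a description too.

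The study asked how disruption of *Hfe*, the gene of hereditary hemochromatosis, alters expression in the liver and duodenum of B6 mice and of D2 mice, a pair of inbred strains that load iron to different degrees. RNA of both organs was measured on 24 Affymetrix Mouse Genome 430 2.0 arrays, 12 per tissue, with 3 male mice aged 7 weeks in each group of strain and genotype. The groups were wild-type B6, *Hfe*-/- B6, wild-type D2 and *Hfe*-/- D2. Wild-type animals had been bought and *Hfe*-/- animals bred by the authors, so that origin goes with genotype, and *Hfe*-/- animals lack *Hfe* in every tissue. Values are MAS5 signals, a linear intensity per probe set on arrays that the authors scaled to a common level, with a median between 15.7 and 20.9 in liver and of at most 23.4 in duodenum. Values under about 20 are therefore near the background of an array and say little of the level. The *Hfe* probe set read 434 to 691 in wild-type and 70.4 to 98.8 in *Hfe*-/- liver, and 76.6 to 105 in wild-type and 15.7 to 45.1 in *Hfe*-/- duodenum, lower on every *Hfe*-/- array than on any wild-type array of its tissue. Hepatocyte and enterocyte marker sums were each highest in the organ named by the label. The summed signal of 9 pancreatic acinar markers was 2170 and 2802 on the duodenum arrays of *Hfe*-/- D2 mice 2 and 3 and 12319 to 84999 on the other 10 duodenum arrays.

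Inbred strains differ from one another at many sequence positions, and a transcript can differ in amount, in the exons it holds or in the bases a probe has to match. The mouse reference sequence is that of B6, and probe sets of one gene can read different segments of its transcripts. From a single probe set, a difference in the amount of a transcript segment and a difference in how well it matches the probes cannot be told apart, and the probe sequences were not used here. Levels in a whole tissue also do not separate fewer cells of a type from less RNA per cell.

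Just inside the 4-fold gap were *Atxn1*, with a smallest gap of 4.01 over both tissues, *Hddc3* (4.37) and *Mavs* (4.44), and just outside it were both probe sets of *Cap1* (3.94 and 3.87) and *Trpc2* (3.77). Just above the level of 50 were *Mir1931*, with a lowest value of 50.8 in its higher strain, *Ncbp3* (61.1) and *Adi1* (79.7), and just below it were *Tceanc2* (42.5), *Vps52* (39.1) and *Trim12a* (38.6). Every one of the 31 passed the low-signal filter of the tests by construction, since the rule demanded 3 arrays at 50 or more.

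On the wild-type arrays, the mean signal of the higher strain ran from 63.3 to 6484 in liver and from 56.3 to 3270 in duodenum, with medians of 167 and 215. The lower strain had a mean under 20 for 17 of the 31 probe sets in each tissue, near or below the median signal of an array. For 7 in liver and 6 in duodenum the lower strain still had a mean of at least 50, as with *Efhd2*, an EF-hand calcium-binding protein, which in wild-type duodenum read 3441, 3227 and 3142 in B6 and 536, 469.7 and 469 in D2. The wild-type log2 difference had a median size of 4.04 in liver, with a range from 2.38 to 6.81, and of 3.72 in duodenum, with a range from 2.28 to 6.48. Replicate arrays lay close together where the signal was high, with a median SD of 0.13 in liver and 0.18 in duodenum on the log2 scale, and further apart where it was low, with 0.37 and 0.55.

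**Figure D1:**
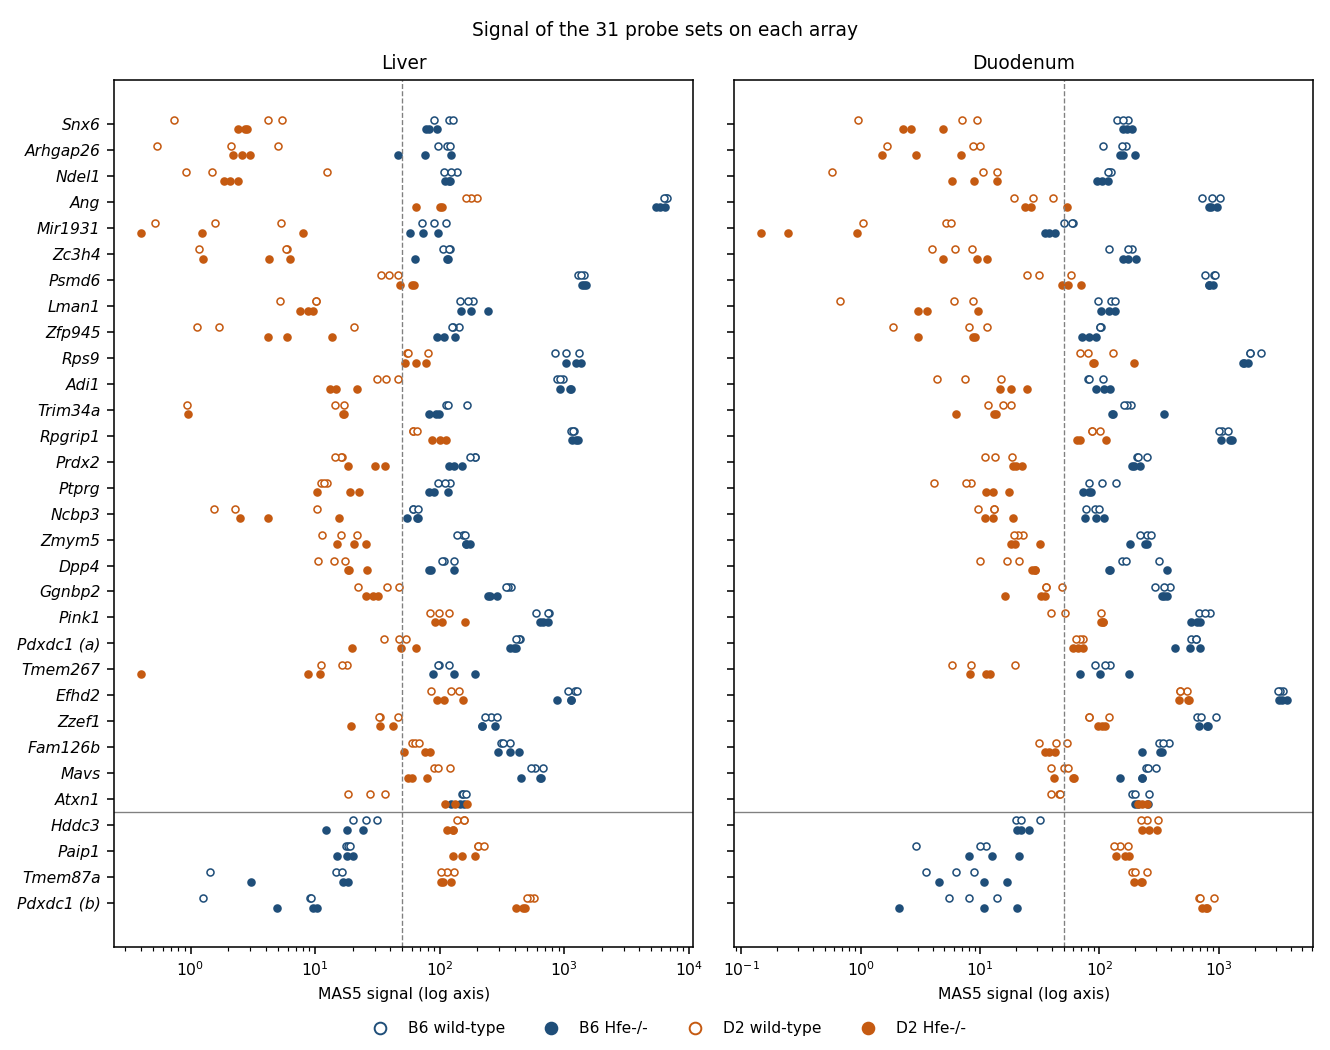
MAS5 signal (horizontal, log axis) of the 31 probe sets, 1 row each, in liver (left) and duodenum (right). Each point is 1 array, with B6 in blue and D2 in orange, wild-type open and *Hfe*-/- filled. The dashed line is the level of 50 and the solid line parts the 27 higher in B6 from the 4 higher in D2, with Pdxdc1 (a) and (b) its 2 probe sets. Filled points lie on the side of the open points of their strain in every row but that of Atxn1.

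Whether the same strain difference was present in mice that the rule had not seen was asked on the *Hfe*-/- arrays, by limma on log2 signals with Benjamini-Hochberg adjustment over 28061 probe sets. A probe set was called when its adjusted p was at most 0.01. In *Hfe*-/- liver, 24 of the 27 probe sets chosen as higher in B6 were called higher in B6, where 1.4% of all probe sets were, and all 4 chosen as higher in D2 were called higher in D2, where 1.22% of all probe sets were. In *Hfe*-/- duodenum the counts were 26 of 27, beside 1.44% of all probe sets, and 4 of 4, beside 1.33%. The size of the difference had a median of 3.51 on the log2 scale in liver and 3.56 in duodenum, against 0.29 and 0.23 over all probe sets tested. The exceptions in liver were *Tmem267*, *Trim34a* and *Atxn1*, and in duodenum *Atxn1* alone.

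The 4-fold gap itself, with the level of 50, recurred on the *Hfe*-/- arrays of liver for 20 of 27 probe sets higher in B6, beside 0.217% of all probe sets, and 4 of 4 higher in D2, beside 0.132%. In duodenum it recurred for 22 of 27, beside 0.217%, and for 4 of 4, beside 0.15%. It held in both tissues for 21 of the 31 and in neither for *Atxn1* and *Ncbp3*. The B6 and D2 arrays of *Hfe*-/- liver did not overlap for 26 of the 27 higher in B6, beside 11.3% of all probe sets, and for 4 of the 4 higher in D2, beside 12.8%. In duodenum they did not overlap for 26 of 27, beside 11.3%, and for 4 of 4, beside 15.1%. Applied to the *Hfe*-/- arrays alone, the rule gave 23 probe sets of 22 genes, of which 21 were shared, or 67.7% of the wild-type list and 91.3% of the *Hfe*-/- list. The other 2 were one probe set of *Cap1*, an actin-regulating protein, higher in D2, and *Slc19a2*, a thiamine transporter, higher in B6, each of which had the gap in wild-type duodenum but not in wild-type liver.

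Hybridization went with strain in part. Among the wild-type arrays, which chose the genes, B6 duodenum was hybridized in run 2 and D2 duodenum in run 3. Run and strain therefore cannot be told apart in wild-type duodenum. Wild-type B6 livers were hybridized in run 1 and wild-type D2 livers in runs 1, 5 and 2. All *Hfe*-/- D2 livers were hybridized in 1 run and the *Hfe*-/- B6 livers in others, so run and strain cannot be told apart in liver. With hybridization day as a term, which the 1 B6 and 3 D2 *Hfe*-/- livers of the first day inform, 14 of the 31 were called. On that day alone the B6 array was at least 4-fold above the D2 arrays for 22 of 27, beside 0.641% of all probe sets, and at least 4-fold below them for 4 of 4, beside 1.82%. It lay outside the D2 arrays on the chosen side for 26 of 27, beside 26.1%, and for 4 of 4, beside 31.9%. In duodenum, run as a term left 27 called. Within the run that held 2 B6 and 3 D2 *Hfe*-/- arrays, the strains were at least 4-fold apart for 23 of 27 higher in B6, beside 0.349%, and for 4 of 4 higher in D2, beside 0.321%. They did not overlap there for 26 of 27, beside 15%, and for 4 of 4, beside 21.3%. In that run the *Hfe*-/- B6 arrays were on station 1 and the *Hfe*-/- D2 arrays on station 2, so station and strain cannot be told apart there. Without the *Hfe*-/- D2 duodenum arrays 2 and 3, which had low acinar markers, 22 of the 31 were called from the 1 remaining D2 array, which was assumed to vary as the B6 arrays did. Single calls most often lost under the alternatives tried were those of *Ncbp3* (8 of 14), *Mir1931* (7 of 14) and *Tmem87a* (6 of 15) in liver and of *Dpp4* (8 of 16) and *Mir1931* (5 of 15) in duodenum, each with its direction kept.

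**Figure D2:**
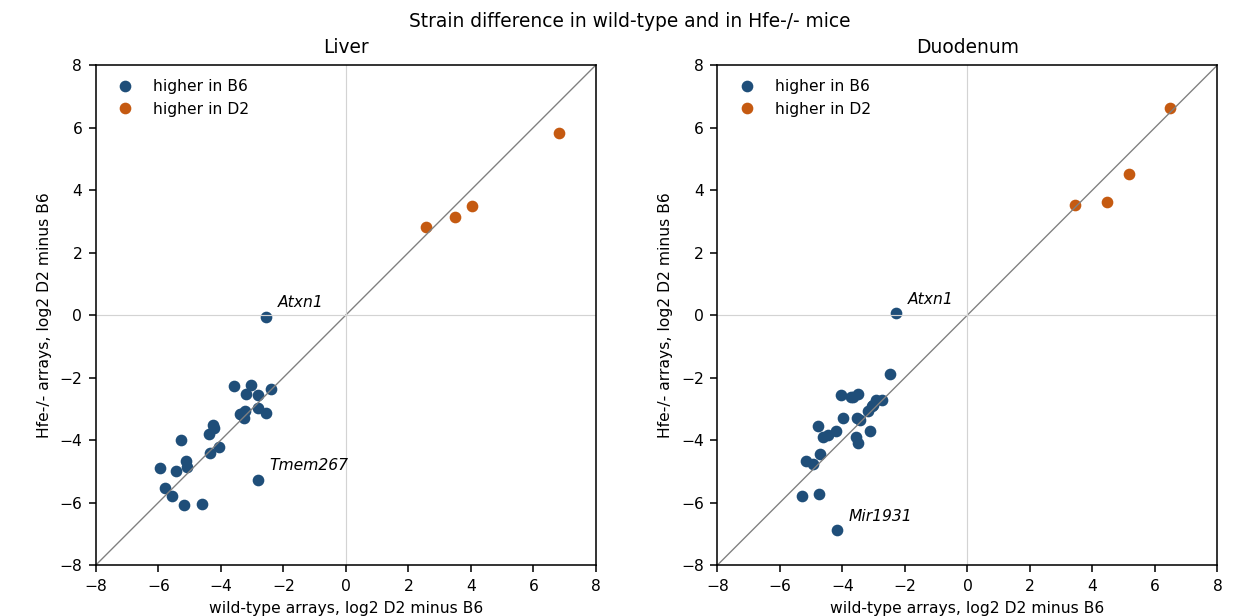
Strain difference (log2 D2 minus B6) on wild-type arrays (horizontal), which chose the probe sets, and on *Hfe*-/- arrays (vertical), in liver (left) and duodenum (right), each point 1 probe set and the line equality. All points but Atxn1, at -0.063 in liver and 0.057 in duodenum on the vertical axis, keep the sign they had in wild-type mice.

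Among genes of RNA and protein synthesis, *Ang* encodes angiogenin, a secreted ribonuclease that cleaves tRNA. In *Hfe*-/- liver its probe set read 5886, 5390.4 and 6404 in B6 and 105, 63.9 and 100.2 in D2, a log2 difference (D2 minus B6) of -6.07 (standard error 0.17, adjusted p = 4.7e-08). In *Hfe*-/- duodenum it read 831, 958 and 860.5 in B6 and 53.3, 26.7 and 23.9 in D2, a difference of -4.77 (standard error 0.27, adjusted p = 5.35e-05). The strains did not overlap in either organ, and the D2 livers still lay above background. *Rps9*, a protein of the small ribosomal subunit, read 1238, 1365 and 1035 in B6 and 52.5, 64.4 and 77.5 in D2 *Hfe*-/- liver (-4.24, standard error 0.16, adjusted p = 3.4e-07). Its duodenal difference was -3.84 (standard error 0.27, adjusted p = 0.000158). The _x_at ending of this probe set marks probes that can bind related transcripts, and ribosomal protein genes have many near-identical copies, so its source is uncertain. The chosen probe sets of *Dpp4* and *Mavs*, described below, have the same ending.

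*Paip1*, which binds the poly(A)-binding protein and promotes translation, was one of the 3 genes higher in D2 alone. It read 19.9, 18.1 and 15.0 in B6 and 192, 149.8 and 128 in D2 *Hfe*-/- liver, with a difference of 3.14 (standard error 0.25, adjusted p = 4.31e-05). The duodenal difference was 3.62 (standard error 0.33, adjusted p = 0.000563). At their chosen probe sets, the cap-binding protein gene *Ncbp3* (-3.51 in liver and -2.71 in duodenum) and *Zc3h4*, a zinc finger protein that limits transcription of noncoding RNA (-4.87 and -4.45), were called lower in D2 in both tissues. *Ncbp3* read 54.1, 67.2 and 66.2 in B6 and 15.4, 2.50 and 4.18 in D2 *Hfe*-/- liver, so the groups did not overlap but 1 D2 array brought the gap under 4-fold.

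Genes of protein degradation and membrane traffic were represented by *Psmd6*, a subunit of the proteasome's regulatory particle. It read 1449.7, 1495 and 1378 in B6 and 48.3, 59.3 and 62.6 in D2 *Hfe*-/- liver. The difference of -4.67 (standard error 0.12, adjusted p = 3.18e-08) had the smallest p of the 31 in that tissue. In duodenum it was -3.90 (standard error 0.14, adjusted p = 6.08e-06). *Snx6*, a sorting nexin of the retromer that returns receptors from endosomes, read 81.9, 77.1 and 94.2 in B6 and 2.85, 2.72 and 2.39 in D2 *Hfe*-/- liver. Its difference was -4.99 in liver and -5.80 in duodenum, with D2 at background, so that its size is uncertain. *Lman1*, a cargo receptor between endoplasmic reticulum and Golgi, differed by -4.43 and -4.67, and *Dpp4*, a peptidase of the enterocyte brush border and of the bile canaliculus, by -2.22 and -2.62. *Tmem87a*, a Golgi membrane protein, was higher in D2, at 193, 225 and 225 against 16.9, 4.50 and 10.7 in B6 *Hfe*-/- duodenum (4.52, standard error 0.42, adjusted p = 0.000614).

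Several of the genes act in mitochondria or redox balance. *Pink1*, a kinase that marks damaged mitochondria, differed by -2.57 in liver and -2.61 in duodenum, and *Mavs*, the mitochondrial adaptor of antiviral RNA sensing, by -3.15 and -1.87. *Prdx2*, a peroxiredoxin that removes hydrogen peroxide, read 129, 151 and 119 in B6 and 36.6, 30.4 and 18.4 in D2 *Hfe*-/- liver (-2.27, standard error 0.27, adjusted p = 0.000791). *Hddc3*, an HD-domain hydrolase, was higher in D2, at 114, 128 and 128 against 12.3, 24.3 and 18.1 in B6 *Hfe*-/- liver (2.81, standard error 0.29, adjusted p = 0.000269). In duodenum its difference was 3.53 (standard error 0.16, adjusted p = 1.76e-05). At these probe sets *Prdx2* and *Hddc3* thus ran in opposite directions, each the same way in both organs. The brighter *Prdx2* probe set 1418506_a_at and the dimmer *Hddc3* probe set 1452875_at were not called in either organ.

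*Arhgap26*, like *Ndel1* a gene higher in B6, read 148, 199 and 158 in B6 and 2.93, 6.97 and 1.51 in D2 *Hfe*-/- duodenum (-5.74, standard error 0.50, adjusted p = 0.000455). *Ndel1*, a regulator of dynein, read 110.4, 120.2 and 119.7 in B6 and 2.08, 2.42 and 1.87 in D2 *Hfe*-/- liver (-5.79, standard error 0.44, adjusted p = 3.3e-05). The D2 arrays were at background in both cases. *Efhd2* (-3.15 in liver and -2.71 in duodenum), the receptor phosphatase gene *Ptprg* (-2.53 and -2.55) and *Fam126b* (-2.38 and -2.92) were called in both tissues.

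Of the remaining genes higher in B6, *Rpgrip1*, known as a ciliary protein of photoreceptors, read 1144, 1292 and 1239 in B6 and 87.4, 99.6 and 111 in D2 *Hfe*-/- liver (-3.63, standard error 0.12, adjusted p = 1.06e-07). Its other probe sets, 1431357_a_at, 1451785_at and 1454231_a_at, did not pass the low-signal filter, with group means of at most 14.8 in either tissue. Which transcript the chosen probe set reads was not tested. At their chosen probe sets, the zinc finger genes *Zfp945* (-4.00 in liver and -3.71 in duodenum), *Zmym5* (-3.07 and -3.31) and *Zzef1* (-2.98 and -2.87) and *Ggnbp2* (-3.18 and -3.73) were called in both tissues. *Tmem267*, a membrane protein, and *Trim34a*, of the tripartite motif family, were called in duodenum but not in liver. The values of *Tmem267* were -3.37 (standard error 0.35, adjusted p = 0.00105) in duodenum and -5.28 (standard error 1.05, adjusted p = 0.0151) in liver, and those of *Trim34a* -4.10 (standard error 0.45, adjusted p = 0.00126) in duodenum and -3.81 (standard error 0.93, adjusted p = 0.0385) in liver. Their liver groups did not overlap. *Tmem267* read 130.2, 88.1 and 193 in B6 and 8.82, 0.397 and 10.9 in D2, and *Trim34a* 93.0, 99.4 and 81.5 and 16.9, 0.954 and 17.0. In each, 1 D2 array fell below 1, where the log2 scale spreads values widely, and with log2 of the signal plus 16 both were called in liver.

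The probe set annotated to *Mir1931*, a microRNA gene, read 73.2, 97.3 and 57.4 in B6 and 1.25, 0.401 and 7.98 in D2 *Hfe*-/- liver (-5.55, standard error 0.95, adjusted p = 0.00692). Its duodenal difference of -6.89 (standard error 0.89, adjusted p = 0.00284) came from B6 values of 37.5, 34.8 and 42.7 and D2 values under 1. With D2 below background in both organs, the size of these differences is uncertain. Whether the probe set reads the microRNA, its precursor or another transcript of the locus was not tested. The mature sequence in RefSeq (GRCm38.p6, chr10:93162879-93162900, plus strand), with the seed of bases 2 to 8 in capitals, is shown because the annotation names a microRNA.
mmu-miR-1931: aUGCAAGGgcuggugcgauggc

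*Pdxdc1*, a protein with a pyridoxal-dependent decarboxylase domain, was the only one of the 30 genes chosen in both directions. One of them (1419327_at) read 480.1, 406 and 462 in D2 and 4.90, 9.64 and 10.4 in B6 *Hfe*-/- liver, higher in D2, with a difference of 5.83 (standard error 0.29, adjusted p = 2.63e-06). The other (1452705_at) read 366, 393 and 408 in B6 and 64.6, 19.7 and 48.5 in D2, lower in D2, with a difference of -3.30 (standard error 0.35, adjusted p = 0.00033). The same opposition stood in duodenum, with 799, 721 and 774 in D2 against 10.8, 2.11 and 20.4 in B6 for the first and 73.0, 59.9 and 66.6 against 695, 426 and 571 for the second. The other kept probe sets of the gene had lower means in D2, 1436372_a_at with -1.05 (standard error 0.18, adjusted p = 0.00775) in liver and in duodenum -0.90 (standard error 0.14, adjusted p = 0.00653), and 1428200_a_at with -2.73 (standard error 0.81, adjusted p = 0.0828) in liver and in duodenum -2.10 (standard error 0.38, adjusted p = 0.0141). The second of these was not called in either organ.

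The 30 genes lay on 13 chromosomes, with 5 on chromosome 14 and 4 each on chromosomes 7 and 11. Within 10 coding genes of each other were only 3 pairs. *Paip1* and *Tmem267* on chromosome 13, with 1 coding gene between them, ran in opposite directions, the first higher in D2 and the second in B6. *Zzef1* and *Ncbp3* on chromosome 11 had 3 coding genes between them, and *Ptprg* and *Psmd6* on chromosome 14 had 9, and both pairs were higher in B6. The next nearest pair, *Ang* and *Rpgrip1* on chromosome 14, had 27. Upstream sequence was listed for 25 of the 30 genes, as 30 start sites. In the 250 bases before them the GC box GGGCGG, on either strand, was found in 18 of 30, beside 32.7% of 32851 mouse start sites, the letters CCAAT in 8, beside 33.8%, and the TATA letters TATAAA in 4, beside 12.4%. A match of letters is not a binding site, and the median GC content was 59.2% for these 30 and 52.4% for all.

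A few of these upstream sequences are shown, those of *Pdxdc1*, whose probe sets ran in opposite directions although 1 start is listed, of *Ang*, whose D2 livers lay above background, and of the neighbors *Paip1* and *Tmem267*. Each is the 250 bases before the first listed start, written 5′ to 3′ along the gene in GRCm38.p6 from RefSeq, the reference being the B6 sequence, with matches to the 3 letter strings in capitals. No D2 sequence was used here.
Pdxdc1, chr16:13903146-13903395, minus strand: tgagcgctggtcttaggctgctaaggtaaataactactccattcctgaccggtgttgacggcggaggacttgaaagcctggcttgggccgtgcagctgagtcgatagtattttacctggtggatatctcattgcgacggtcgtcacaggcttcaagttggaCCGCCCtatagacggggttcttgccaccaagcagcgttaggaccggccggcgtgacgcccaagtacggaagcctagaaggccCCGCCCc
Ang, chr14:51090827-51091076, plus strand: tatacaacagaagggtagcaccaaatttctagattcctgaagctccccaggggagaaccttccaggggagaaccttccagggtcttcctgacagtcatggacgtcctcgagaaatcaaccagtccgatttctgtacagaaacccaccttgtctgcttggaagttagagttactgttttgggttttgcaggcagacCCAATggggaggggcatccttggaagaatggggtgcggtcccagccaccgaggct
Paip1, chr13:119428350-119428599, plus strand: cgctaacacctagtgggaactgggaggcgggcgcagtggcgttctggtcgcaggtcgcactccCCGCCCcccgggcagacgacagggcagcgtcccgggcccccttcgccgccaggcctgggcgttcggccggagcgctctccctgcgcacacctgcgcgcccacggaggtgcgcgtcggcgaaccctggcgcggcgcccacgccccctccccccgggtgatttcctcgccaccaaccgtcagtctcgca
Tmem267, chr13:119487836-119488085, plus strand: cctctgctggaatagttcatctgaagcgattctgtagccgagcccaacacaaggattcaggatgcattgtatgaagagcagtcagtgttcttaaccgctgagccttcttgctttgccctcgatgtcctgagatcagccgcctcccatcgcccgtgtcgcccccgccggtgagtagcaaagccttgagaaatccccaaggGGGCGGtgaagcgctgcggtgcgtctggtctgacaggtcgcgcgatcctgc

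Other probe sets of the same genes were read beside the chosen ones. The rule had been applied to them too and they had not met it, so smaller differences among them follow in part from the choice. Of the 30 genes, 27 had at least 1 other probe set and 26 had 1 that passed the low-signal filter. Leaving *Pdxdc1* aside, 43 such probe sets could be compared on the *Hfe*-/- arrays. In liver 5 were called in the direction of the chosen probe set, 0 in the opposite direction and 38 were not called, and in duodenum the counts were 7, 1 and 35. Their median difference, turned to the chosen direction, was 0.10 in liver and 0.18 in duodenum, and all 43 differed by less than the chosen probe set of their gene in each tissue. Among those with a mean signal of at least 100, 18 of 26 in liver and 21 of 29 in duodenum were within 1.5-fold between strains, and 2 and 3 differed by more than 2-fold in the chosen direction. These bright probe sets came from 18 genes in liver, of which 14 had one within 1.5-fold, and from 21 genes in duodenum, of which 17 did.

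The contrast within a gene was plain for *Psmd6*. Its other probe set (1423697_at) read 1381, 1429.6 and 1521 in B6 and 1215, 1068 and 1049 in D2 *Hfe*-/- liver, a difference of -0.38 (standard error 0.099, adjusted p = 0.0519). *Rps9* read 3294, 3236 and 2866 in B6 and 2848, 3184 and 2968 in D2 at 1433689_s_at (-0.061, standard error 0.11, adjusted p = 0.813), and the other probe set of *Prdx2*, 1418506_a_at, differed by 0.31 (standard error 0.11, adjusted p = 0.159) in liver and in duodenum 0.10 (standard error 0.094, adjusted p = 0.595). *Dpp4* at 1416697_at (0.25 in liver and -0.36 in duodenum), *Ndel1* at 1422568_at (-0.18 and -0.03), *Lman1* at 1428130_at (-0.12 and -0.23), *Ggnbp2* at 1426011_a_at (-0.095 and -0.16) and *Zc3h4* at 1434459_at (0.0048 and 0.16) were likewise not called. Nor were *Ncbp3* at 1423118_at (0.0064 and -0.055), *Arhgap26* at 1435694_at (-0.094 and -0.072) and *Snx6* at 1425148_a_at (-0.69 and -0.25). *Zmym5* at 1425577_at (0.17 and 0.33) and *Zzef1* at 1434192_at (-0.17 and 0.26) were also not called. *Zfp945* at 1437127_at had the opposite sign (0.34 and 1.26, limma adjusted p = 0.0213 in duodenum) and did not pass.

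In a smaller set of genes a second probe set moved with the first. *Paip1* at 1441955_s_at differed by 2.26 (standard error 0.34, adjusted p = 0.00331) in liver and in duodenum 2.50 (standard error 0.21, adjusted p = 0.000372), while at 1451740_at it read 279.5, 295 and 284 in B6 and 318, 228 and 320.2 in D2 liver and was not called in either organ. *Pink1* at 1451148_at was lower in D2, with -0.99 (standard error 0.17, adjusted p = 0.00708) in liver and in duodenum -0.92 (standard error 0.10, adjusted p = 0.00127), against -2.57 and -2.61 at the chosen probe set. *Mavs* was also called at its second probe set in liver (-0.87, standard error 0.12, adjusted p = 0.00159), and *Efhd2* (-0.89, standard error 0.11, adjusted p = 0.00201) and *Fam126b* at 1456320_at (-1.38, standard error 0.14, adjusted p = 0.00104) in duodenum. *Ptprg* was called in duodenum at 1434360_s_at (-1.48, standard error 0.16, adjusted p = 0.00105) and at 1456070_at (-1.38, standard error 0.21, adjusted p = 0.00657). *Ang* was lower in D2 at 1438937_x_at, with -2.12 (standard error 0.10, adjusted p = 2.39e-06) in liver and in duodenum -1.87 (standard error 0.19, adjusted p = 0.000962), but at 1450717_at read 949, 1054 and 960.0 in B6 and 1401, 1322 and 1692 in D2 liver, a difference of 0.57 (standard error 0.11, adjusted p = 0.015) in the opposite sense that did not pass. *Trim34a* at 1426093_at also had the opposite sign, 3.56 in liver (adjusted p = 0.0309), and did not pass. The mouse genome holds several close relatives of *Ang*, so which transcript each of these probe sets reads is uncertain.

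**Figure D3:**
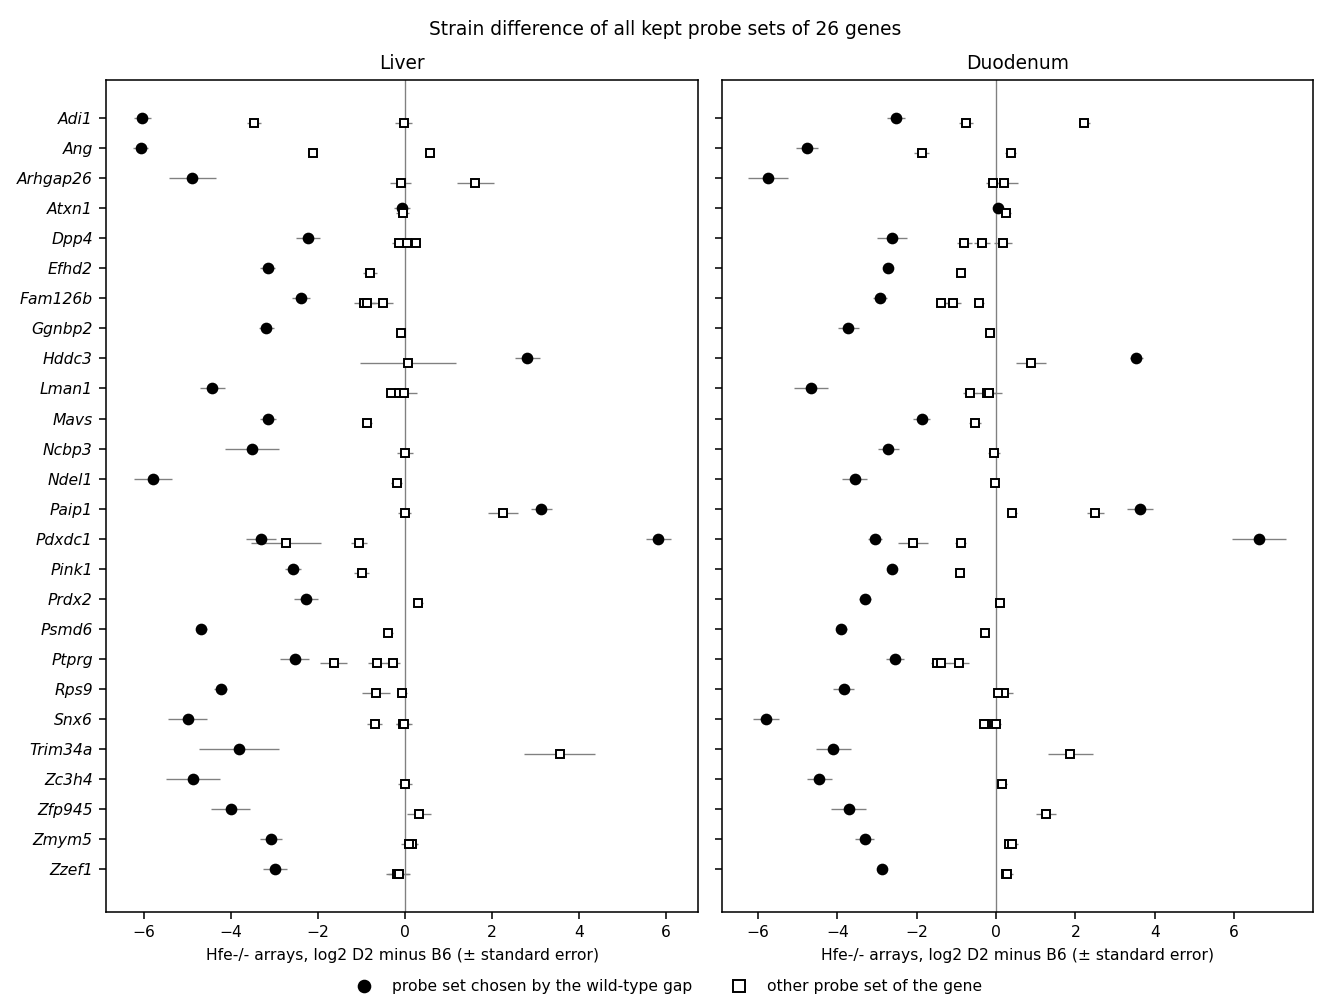
Strain difference on *Hfe*-/- arrays (log2 D2 minus B6, bars the standard error of the limma fit) for every kept probe set of the 26 genes with more than 1, in liver (left) and duodenum (right). Filled circles are the probe sets chosen on wild-type arrays and open squares the other probe sets of the gene. Most squares lie nearer 0 than the circle of their row, and Pdxdc1 has circles on both sides.

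*Adi1*, acireductone dioxygenase of the methionine salvage pathway, was the only one of the 31 whose strain difference was called different between the organs, where 0.495% of all probe sets were (limma interaction on the *Hfe*-/- arrays, threshold 0.01). It read 1135, 927 and 1116 in B6 and 14.8, 13.1 and 21.5 in D2 *Hfe*-/- liver, a difference of -6.04 (standard error 0.19, adjusted p = 1.06e-07). In duodenum it read 109.9, 93.7 and 122 in B6 and 18.1, 24.7 and 14.7 in D2, a difference of -2.52 (standard error 0.23, adjusted p = 0.000591). The D2 values were near background in both organs, with means of 16.4 and 19.2, so the size of each difference is uncertain, and the B6 means were 1059 and 108. The difference in liver minus that in duodenum was -3.51 (standard error 0.32, adjusted p = 0.000204). By the study's methods both organs came from the same mice, and this fit treats the arrays as separate animals. At 1438759_x_at the strain difference was -3.46 in liver and -0.75 in duodenum, and the difference between organs was -2.71 (standard error 0.27, adjusted p = 0.000326). At 1449076_x_at the liver difference was not called (-0.027, standard error 0.20, adjusted p = 0.961), D2 was higher in duodenum (2.22, standard error 0.14, adjusted p = 0.0001), and the difference between organs was -2.25 (standard error 0.28, adjusted p = 0.00163). Next in order were *Ndel1* (-2.22, adjusted p = 0.035) and *Mavs* (-1.27, adjusted p = 0.0721), which did not pass.

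*Atxn1*, a nuclear protein that binds transcriptional repressors, was the exception among the 31. Wild-type liver read 150.0, 152 and 162 in B6 and 36.2, 27.8 and 18.2 in D2, and wild-type duodenum 261, 189 and 197 and 45.7, 39.2 and 47.1. On the *Hfe*-/- arrays B6 read 146, 123 and 157 in liver and D2 read 167, 133 and 110.4. In duodenum these were 254, 197 and 212 and 211, 227 and 249.7. The *Hfe*-/- D2 mice therefore stood at the level of both B6 groups, and the strains overlapped. The strain difference in *Hfe*-/- mice was -0.063 (standard error 0.18, adjusted p = 0.89) in liver and in duodenum 0.057 (standard error 0.12, adjusted p = 0.844), and its 95% interval was -0.46 to 0.33 in liver and -0.23 to 0.34 in duodenum.

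The comparison of *Hfe*-/- with wild-type mice of one strain shares its wild-type arrays with the choice of the genes, so its counts and values are given as a description, and nothing about the 31 is read from them. In D2 liver, 6 of the 31 were called at a threshold of 0.1, beside 2.75% of all probe sets, and in B6 liver 0 of the 31, beside 1.02%. In D2 duodenum 1 of the 31 was called, beside 0.378%, and in B6 duodenum 0, beside 0.0107%. By the same limma fit, unadjusted p was under 0.05 for 10 of the 31 in D2 liver and 0 in B6 liver, beside 13.3% and 11.5% of all probe sets, and for 9 in D2 duodenum and 1 in B6 duodenum, beside 11.8% and 5.66%. *Atxn1* was the 1 called in D2 duodenum, where its log2 difference (*Hfe*-/- minus wild-type) was 2.38 (standard error 0.15), and it was among the 6 in D2 liver, with 2.36 (standard error 0.22). In B6 the values were -0.13 (standard error 0.22) in liver and in duodenum 0.044 (standard error 0.15), and whether the strains differ in this effect was not tested. With hybridization run as a term *Atxn1* was the only one of the 31 called in D2 liver.

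The second *Atxn1* probe set, 1434451_at, did not follow in liver. In wild-type liver it read 195, 176 and 184 in B6 and 215, 219 and 182 in D2, and in *Hfe*-/- liver 182, 168 and 141 and 173, 136 and 165. In duodenum its wild-type D2 arrays, at 140, 133 and 166, lay below the wild-type B6 arrays, at 248, 173 and 193. Its *Hfe*-/- duodenum arrays overlapped, at 203, 162 and 173 in B6 and 187, 224 and 223 in D2. Its values in D2 were -0.38 (standard error 0.13, adjusted p = 0.196) for the liver effect of *Hfe* disruption and 0.53 (standard error 0.15, adjusted p = 0.199) for the duodenal one, neither past the threshold. *Atxn1* lies on chromosome 13, as does *Hfe*, with 150 protein-coding genes between them in the RefSeq order of GRCm38.p6. *Paip1* and *Tmem267*, the other 2 of the 30 genes on that chromosome, have 629 and 631 coding genes between them and *Hfe*, and their *Hfe*-/- D2 arrays kept the D2 side of the gap.

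The other 5 probe sets called in D2 liver differed by less. The wild-type arrays compared here also chose them, so these values too are a description. An effect of *Hfe* on them was not tested on arrays apart from the choice. In *Hfe*-/- D2 mice *Ang* was lower, with a log2 difference of -1.04 (standard error 0.15), as were *Adi1* (-1.23, standard error 0.18) and *Mavs* (-0.68, standard error 0.17). *Rpgrip1* was higher (0.66, standard error 0.10), and so was *Psmd6* (0.51, standard error 0.12). These are differences within the low strain, whose signals were 200.4, 179.7 and 163 in wild-type and 105, 63.9 and 100.2 in *Hfe*-/- mice for *Ang* and 46.4, 31.4 and 37.0 and 14.8, 13.1 and 21.5 for *Adi1*. With run as a term all 5 lost their call, and with the 6 D2 arrays alone 2 of the 31 were called. In D2 duodenum the count of 1 rose to 5 without wild-type D2 array 3, and to 2 without wild-type D2 array 2 or *Hfe*-/- D2 array 1.

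**Figure D4:**
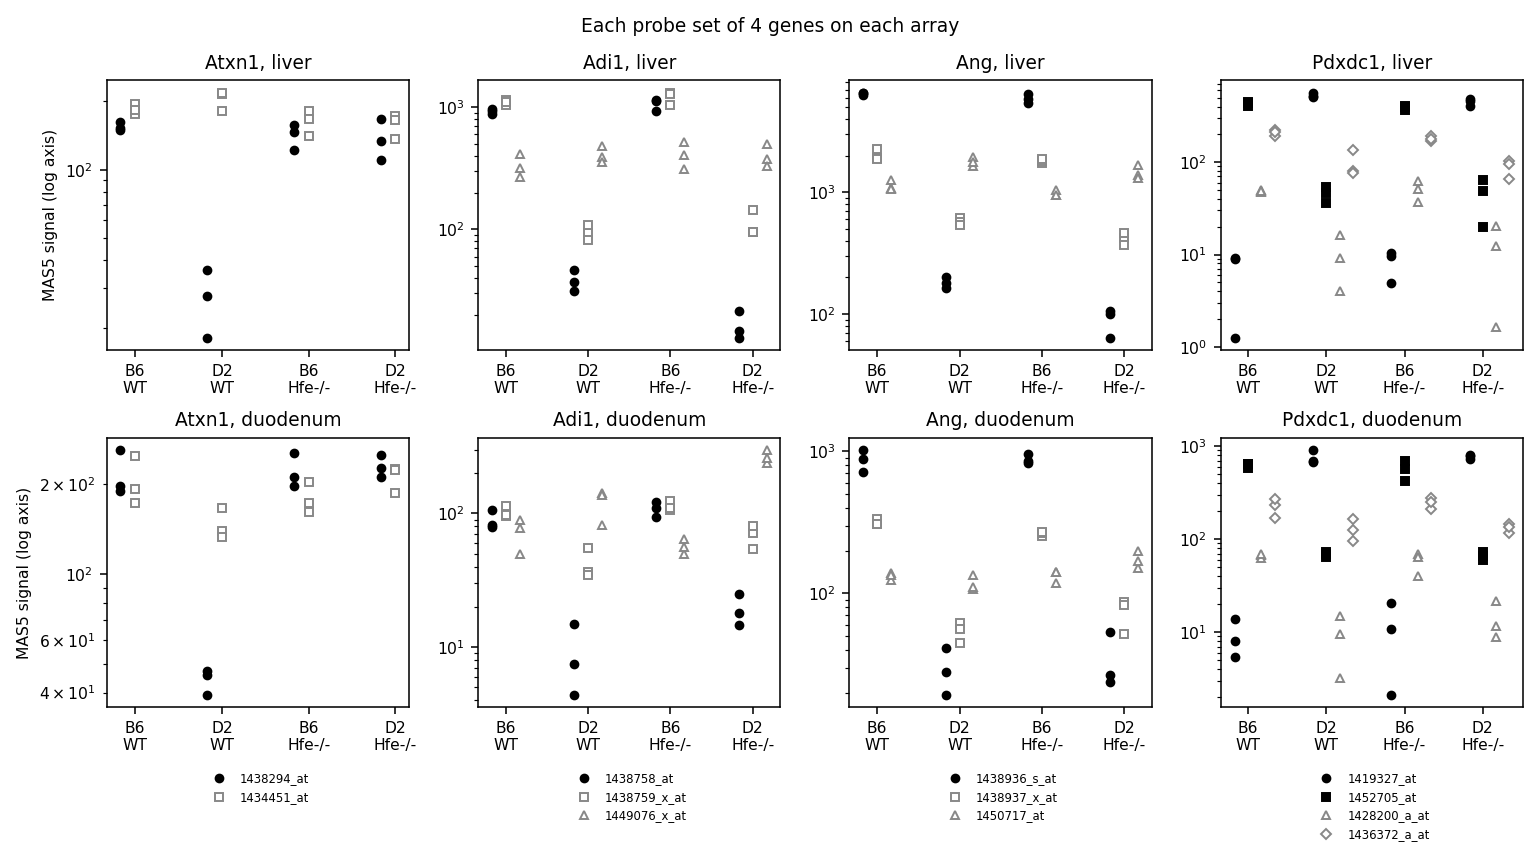
MAS5 signal (vertical, log axis) of each kept probe set of Atxn1, Adi1, Ang and Pdxdc1 on each array, in liver (top) and duodenum (bottom), with the 4 groups of strain and genotype along the horizontal axis and 3 arrays per group. Filled symbols are the chosen probe sets and open symbols the others. For Atxn1 the filled symbols of the wild-type D2 group are the lowest, and for Pdxdc1 the 2 filled symbols are high in opposite strains.

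Other gene lists were read beside them on the same *Hfe*-/- arrays, each gene by its brightest kept probe set. Of 6 measured genes known to carry sequence differences between B6 and D2, 1 was called higher in B6 and 2 in D2 in each tissue, the latter being *Alad*, of heme synthesis (1.51 in liver and 2.02 in duodenum), and *Glo1*, glyoxalase 1 (0.89 in liver and 1.04 in duodenum). Both are smaller than the median of the 31. Of 21 measured genes that the study named in its modifier regions, 8 were called higher in B6 and 3 higher in D2 in liver, and 5 and 2 in duodenum. That list was chosen by the study on these samples, and *Prdx2* was the only one of the 30 genes in it or in any list. Of 27 iron genes, 1 was called in liver, *Hamp*, which encodes hepcidin, higher in B6 (-2.35), and 1 in duodenum, *Tfrc*, the transferrin receptor, higher in B6 (-0.67).

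Of 6 hepatocyte, 7 enterocyte, 6 B and plasma cell, 7 T and NK cell, 6 macrophage, 6 smooth muscle and 5 goblet and Paneth cell markers, 0 were called in either tissue at 0.01. In liver 1 of 9 acinar markers, *Cela1*, and the 1 erythroid marker measured, *Alas2*, were called higher in D2. *Alas2* had liver means of 647 in wild-type B6 and 832 in wild-type D2, and of 760 and 1897 in *Hfe*-/- mice. The study reported *Alas2*, of heme synthesis, as raised in *Hfe*-/- liver, so it is not read here as a measure of erythroid cells. The summed acinar signal of *Hfe*-/- liver was 237 to 296 in B6 and 648 to 1243 in D2. *Cela1* made up most of it, with means of 186 in B6 and 978 in D2. The 9 acinar markers had a median difference of -0.32 in liver. In duodenum the 9 acinar markers had a median difference of -3.73, with 0 called, and were low on the *Hfe*-/- D2 arrays 2 and 3 given above. The summed macrophage signal in *Hfe*-/- duodenum was 812 to 1058 in B6 and 586 to 764 in D2, and in *Hfe*-/- liver 1907 to 2977 and 2000 to 2601. Their part in the strain differences was not tested.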

How the data were processed

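Liver and duodenum RNA of 24 samples was hybridized to Affymetrix Mouse Genome 430 2.0 arrays, 1 array per sample and 3 mice per group. The deposited values are MAS5 signals, a linear intensity per probe set that the authors brought to the same mean on every array; the MAS5 version is not given in the sources used here. Groups came from the sample labels, and hybridization runs, days and stations from the deposited instrument files, which hold settings and no measurement. Genes were named from the platform annotation, in which 34945 probe sets have 1 symbol, 932 several and 9160 none. No stated read depth applies to arrays, and their number limits the precision.

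The genes and lists were chosen with earlier results of these data known. Probe sets whose third-highest signal was at least 20 in liver or in duodenum were kept, which left 28061. Log2 signals with no pseudocount were fitted with limma 3.58.1 in R 4.3.3 (lmFit, and eBayes with a trend), with Benjamini-Hochberg adjustment over all kept probe sets. Strain differences were fitted on the *Hfe*-/- arrays of a tissue, their difference between tissues on the *Hfe*-/- arrays of both, and effects of *Hfe* on the 4 groups of a tissue. Thresholds were 0.01 for strain and tissue and 0.1 for *Hfe*. By the study's methods both organs came from the same mice. The labels do not give which arrays share a mouse, so the tissue fit treats all arrays as separate. Standard errors are those of the moderated fit. An exact permutation test of 3 against 3 arrays cannot go below 0.1 and was not used. The fits were tested on simulated data.

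Any of the 31 probe sets could be named. Array values were given for some of those with the largest wild-type differences and of those not separated or not called in *Hfe*-/- mice. They were also given for some of those called for *Hfe* or between tissues and of the neighbors on a chromosome. Some further ones were chosen after their values were seen. As alternatives, 16 was added to each signal before log2, arrays were quantile normalized, the filter was dropped or raised to 100, and the others were eBayes with no trend, the replicate number or hybridization as a block, other thresholds, other arrays in the fit, each array left out, and other limits of the rule. Leaving out the duodenum arrays with low acinar markers, and a block of strain and replicate number, were added after seeing the data. Tables were handled with the data.table package (version 1.17.8), Python 3.11.15, pandas 2.3.3 and numpy 2.4.6, and plots drawn with matplotlib 3.10.9.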

Additional observations from a re-analysis of the deposited data

Results flagged for a closer look

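The log2 strain difference (D2 minus B6) of *Adi1* was called different between the organs of *Hfe*-/- mice. The value in liver minus that in duodenum was -3.51 (standard error 0.32, limma adjusted p = 0.000204), and the call was kept in all 21 alternatives, with values from -3.72 to -3.14. The D2 means were near background in both organs, 16.4 in liver and 19.2 in duodenum, and the B6 means were 1059 and 108, so the value follows mainly the B6 level. The other *Adi1* probe sets gave -2.71 at 1438759_x_at and -2.25 at 1449076_x_at for the same quantity. The strain difference did not keep its sign across them, since 1449076_x_at had -0.027 (adjusted p = 0.961) in liver and 2.22 (adjusted p = 0.0001) in duodenum.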

How the results depend on the processing

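For the strain difference in *Hfe*-/- liver, 736 probe sets were called, against 69 with no trend, 1677 at 0.05, 1326 with all 4 groups and 143 with hybridization day as a term, and the 28 of the 31 became 15 with no trend and 14 with day. Leaving out 1 array gave 381 to 831. In duodenum the 776 became 244 with no trend, 407 with the replicate block, 1867 at 0.05, 343 with run and 104 without both arrays low in acinar markers, and 312 to 784 without 1 array, while 22 to 30 of the 31 were called. For the tissue difference, 139 became 256 with log2(signal + 16), 48 with no trend, 442 at 0.05, 82 with strain and replicate number as a block, 35 without both acinar-low arrays, and 74 to 188 without 1 array. Its 1 of the 31 became 2 with log2(signal + 16) and 2 at 0.05. The *Hfe* effect in D2 liver was called for 773, against 86 with no trend, 390 at 0.05, 109 with run and 220 to 1740 without 1 array, and its 6 of the 31 became 2 with 6 arrays and 1 with run. In B6 liver the 287 became 26 with no trend, 120 at 0.05, 172 with 6 arrays, 99 with run and 56 to 412 without 1 array. In D2 duodenum the 106 became 31 with no trend, 42 with the replicate block, 30 at 0.05, 21 with 6 arrays, 45 with run and 17 to 783 without 1 array, which left 1 to 5 of the 31. In B6 duodenum the 3 became 6 with no trend, 0 with 6 arrays, 6 with run and 1 to 6 without 1 array. An 8-fold gap left 13 of the 31. The small differences of *Atxn1* changed sign, to -0.058 for strain in duodenum without both acinar-low arrays and to 0.037 for *Hfe* in B6 liver with run. Without 1 array *Atxn1* ranged from -0.22 to 0.081 for strain in liver, from -0.021 to 0.16 in duodenum, from -0.27 to 0.025 between tissues and from -0.059 to 0.19 for *Hfe* in B6 duodenum. The cause of these changes was not tested. Same-numbered arrays did not deviate together (r from -0.16 to 0.077 across probe sets), and the numbers were not taken as pairs, since the labels do not give which arrays share a mouse. With the replicate block 29 of the 31 were called in liver and 29 in duodenum, 1 between tissues, and 6, 0, 1 and 0 for *Hfe* in D2 liver, B6 liver, D2 duodenum and B6 duodenum. Signals under about 20 limit what the low strain shows, and a fold there depends on background.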
